A study of Mus musculus with 24 samples.

Results

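The cytosolic sulfotransferases are encoded by the Sult genes, and 10 of them, Sult1a1, Sult1b1, Sult1c2, Sult1d1, Sult1e1, Sult2a1, Sult2a2, Sult2a8, Sult3a1 and Sult5a1, were followed by gene symbol in the livers of Mup-KO and WT mice. All 10 were found among the 25746 genes listed in each library, which held 21 Sult genes in all. The study asked how deletion of the major urinary protein (Mup) gene cluster changes metabolism, and hepatic mRNA was sequenced in 24 C57/BL6N mice aged 12 weeks, 1 library per mouse. The groups were male WT (mWT), male KO (mKO), female WT (fWT) and female KO (fKO), with 6 mice each. In KO mice the whole cluster on chromosome 4 had been removed on both alleles with CRISPR/Cas9, and the line goes back to a single founder male whose heterozygous descendants were intercrossed. All groups ate standard chow, and the livers were taken after a short fast and a microCT scan under isoflurane anesthesia.

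Sulfotransferases move a sulfonate group from PAPS, the activated form of sulfate, to phenols, steroids, bile acids and amines, which as a rule makes the product more soluble in water and ends its activity. The Sult1 enzymes act mainly on phenols, catecholamines, thyroid hormones and estrogens, the Sult2a enzymes on hydroxysteroids and bile acids, and Sult3a1 on amines. In mouse liver several of these genes are known for sex-biased expression, which follows the sex-specific pattern of growth hormone secretion.

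Total counts ranged from 15361901 to 26261394 per library, so that 3 counts, taken as the smallest detectable amount, corresponded to at most 0.195 CPM (counts scaled to a common library total). Reads of the 22 Mup genes made up 1.70 to 3.68% of the counts in mWT and 0.344 to 0.555% in fWT mice, and no KO library held more than 11. Reads on the Y-linked genes matched the sex given for every mouse (2723 or more in each male, 2 or fewer in each female). Hepatocyte markers summed to between 98166 and 161987 CPM over the 24 livers, all 8 were present in each group, and the pancreas, kidney and adipose markers stayed under the filter on low values. Of 5 intestine markers, 2 passed this filter, and the list summed to between 110 and 403 CPM. Levels are given as CPM scaled by the TMM method, or as CPM per kb of exon where genes are compared with each other.

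The Sult2a genes lie in a cluster on chromosome 7 and include near-identical copies, which limits what the counts of Sult2a1 and Sult2a2 can tell. The first 90 coding bases show this for 5 genes of the cluster, with capitals at the 43 positions where at least 1 of the 5 differs (GRCm38, GENCODE M21). They lie in coding exon sequence at chr7:13837267-13837356 on the minus strand for Sult2a1, chr7:13733559-13733648 on the plus strand for Sult2a2, chr7:13624045-13624134 on the plus strand for Sult2a5, chr7:14254744-14254833 on the minus strand for Sult2a6 and chr7:14427830-14427919 on the minus strand for Sult2a8.
Sult2a1: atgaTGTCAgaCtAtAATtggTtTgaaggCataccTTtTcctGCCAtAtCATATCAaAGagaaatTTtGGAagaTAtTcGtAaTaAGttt
Sult2a2: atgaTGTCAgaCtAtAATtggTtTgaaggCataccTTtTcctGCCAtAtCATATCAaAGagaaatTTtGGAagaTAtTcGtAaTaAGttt
Sult2a5: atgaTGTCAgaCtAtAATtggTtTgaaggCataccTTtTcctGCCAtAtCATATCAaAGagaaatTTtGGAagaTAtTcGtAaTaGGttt
Sult2a6: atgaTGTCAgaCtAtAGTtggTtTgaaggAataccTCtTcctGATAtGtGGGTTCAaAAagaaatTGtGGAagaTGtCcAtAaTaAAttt
Sult2a8: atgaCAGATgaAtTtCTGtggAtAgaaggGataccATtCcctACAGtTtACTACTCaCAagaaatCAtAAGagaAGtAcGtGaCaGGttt
Over these 90 bases Sult2a2 did not differ from Sult2a1 at all, Sult2a5 differed at 1 base, Sult2a6 at 16 and Sult2a8 at 37. Of all 100-base windows, the length of the reads, 11.4% of those in the Sult2a1 transcript and 34.6% of those in Sult2a2 occurred exactly in the transcript of another gene. Sult2a8 shared no such window, and none was shared by Sult1b1, Sult1c2, Sult1d1, Sult1e1, Sult3a1 or Sult5a1 either. In Sult1a1 the share was 1.75%, with the predicted gene Gm6939. How the authors' counting treated reads that fit several genes is not given in the sources used here, so the division of reads between Sult2a1 and Sult2a2 is uncertain, whereas Sult2a8 can be told apart from both.

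Promoters were taken from RefSeq (GRCm38.p6), where 8 of the 10 genes had an entry and Sult2a1 and Sult2a2 had none. The 250 bases before the start are shown for Sult3a1 and its paralogue Sult3a2, which were read almost only in females, and for a start of Sult2a8, which was higher in males. They lie at chr10:33857472-33857721 on the plus strand, chr10:33782116-33782365 on the minus strand and chr7:14438552-14438801 on the minus strand. Capitals mark matches on either strand. The letters searched were TTCNNNGAA for the STAT5-type motif, which transcription factors downstream of growth hormone bind. They were AGGTCA for the nuclear receptor half-site and CAAAGTCCA for the HNF4-type motif. For the HNF6-type motif they were ATCAAT, and for the TATA box TATAAA was used.
Sult3a1: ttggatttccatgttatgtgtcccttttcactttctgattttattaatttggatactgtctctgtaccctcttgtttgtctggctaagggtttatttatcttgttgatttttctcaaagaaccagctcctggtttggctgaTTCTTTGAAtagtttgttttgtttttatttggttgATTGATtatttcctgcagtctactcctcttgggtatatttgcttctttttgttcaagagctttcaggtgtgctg
Sult3a2: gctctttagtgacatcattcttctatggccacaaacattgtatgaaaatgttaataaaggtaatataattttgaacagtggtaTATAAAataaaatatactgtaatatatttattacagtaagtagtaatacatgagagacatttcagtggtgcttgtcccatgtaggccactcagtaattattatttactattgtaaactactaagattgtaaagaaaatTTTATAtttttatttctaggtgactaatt
Sult2a8: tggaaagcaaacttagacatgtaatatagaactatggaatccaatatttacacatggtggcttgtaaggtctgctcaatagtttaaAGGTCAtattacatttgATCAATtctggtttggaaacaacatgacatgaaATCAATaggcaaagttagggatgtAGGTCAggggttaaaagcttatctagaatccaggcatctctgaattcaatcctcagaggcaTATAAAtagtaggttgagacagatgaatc
The STAT5-type match in Sult3a1 began 109 bases before the start and its HNF6-type match 74 bases before it. The Sult3a2 window held matches to the TATA box alone, at 167 and 29 bases before the start, although the coding sequences of the pair are 90.9% identical. The Sult2a8 window held half-sites at 164 and 90 bases, HNF6-type matches at 147 and 114 bases and a TATA box at 29 bases before the start. The window of the other Sult2a8 start, at chr7:14446588-14446837 and not shown, held a TATA box match alone, 223 bases before that start. None of the matches overlapped. Sult3a1 was the only 1 of the 8 with a STAT5-type match, which 7.02% of all 32851 promoters held. A half-site was found in 3 of the 8 (14.02% of all promoters), an HNF6-type match in 2 (6.72%), a TATA box in 1 (12.4%) and an HNF4-type match in none (0.384%). A gene was counted if any of its starts held a match, whereas the shares are over single promoters. These are matches of letters only, and binding was not measured.

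The genes differed widely in level, and their order differed between the sexes. Per kb of exon, the order in mWT livers was Sult2a8 with 352 ± 44.6 CPM per kb (mean ± SD, n = 6), Sult1a1 with 197 ± 34.3, Sult1d1 with 79.5 ± 24.2, Sult1b1 with 14.1 ± 1.77, Sult5a1 with 6.63 ± 1.46, Sult1c2 with 2.29 ± 0.980 and Sult1e1 with 0.242 ± 0.264. Every neighbouring pair in this order was separate, with the lowest mouse of the higher gene above the highest mouse of the next, and the same held in mKO livers. In fWT livers Sult1a1 came first with 388 ± 45.01 CPM per kb, followed by Sult2a8 with 205 ± 18.7, Sult3a1 with 161 ± 39.8, Sult1d1 with 107 ± 25.0, Sult2a1 with 62.6 ± 51.2 and Sult2a2 with 57.6 ± 35.2. Among these 6, only Sult1a1 was separate from its next neighbour, whereas the ranges of the other neighbours overlapped. In fKO livers Sult1a1 also led, with 374 ± 93.7 CPM per kb, and was separate from Sult2a8 with 238 ± 23.1. The value per kb of Sult2a2 rests on an annotated transcript of 741 bases, whose coding part of 585 bases is shorter than the 858 of Sult2a1. The lead of Sult1a1 in females also depends on exon length, 1507 bases against 3284 for Sult2a8. In plain CPM the mean of Sult2a8 was above that of Sult1a1 in females as well, with overlapping ranges. The means were 673 and 585 CPM in fWT and 783 and 564 CPM in fKO mice.

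As a share of the summed level per kb of all 21 Sult genes, Sult2a8 made up 53.9% in mWT, 53.4% in mKO, 19.3% in fWT and 23.8% in fKO livers. Sult1a1 made up 30.2, 32.0, 36.5 and 37.5% in the same order. Sult3a1 contributed 15.2% in fWT and 15.1% in fKO livers, and in both male groups less than 0.01%. The summed Sult level was 1721 ± 92.6 CPM in mWT, 1696 ± 177 in mKO, 1955 ± 291 in fWT and 1982 ± 314 in fKO mice (SD, n = 6), and the ranges of all 4 groups overlapped.

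**Figure D1:**
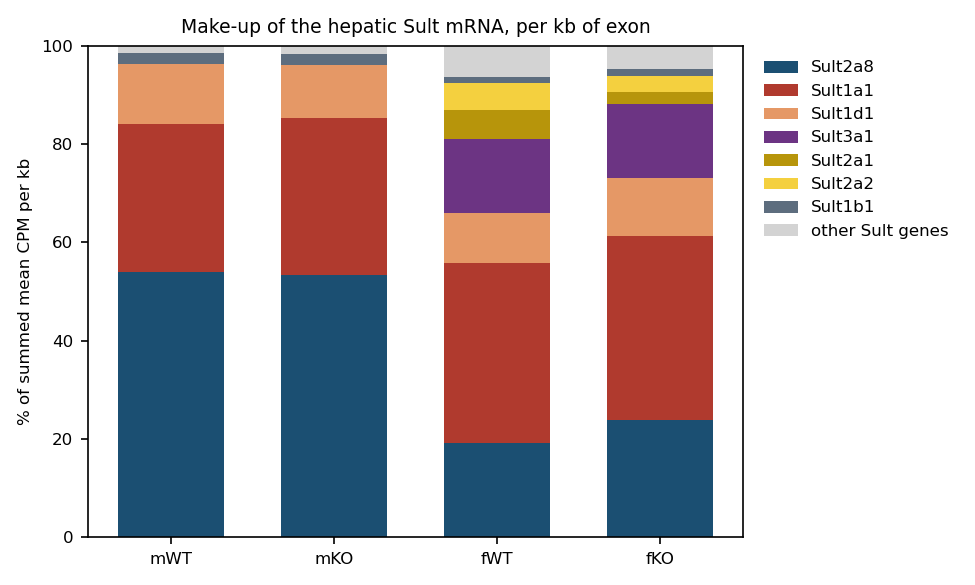
Make-up of hepatic Sult mRNA in the 4 groups: each bar stacks the mean CPM per kb of exon of each gene (6 mice) as a percent of the sum over 21 Sult genes. Sult2a8 fills 53.9% of the mWT bar and 19.3% of the fWT bar, and Sult3a1, Sult2a1 and Sult2a2 appear only in the female bars.

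The first question was whether removing the Mup cluster changed the sulfotransferases. None of the 10 genes was called in either sex. Of the 9 genes that passed the filter on low values (at least 0.66 CPM in at least 6 libraries), 0 were called in males and 0 in females at an adjusted p under 0.05 (edgeR quasi-likelihood test with Benjamini-Hochberg adjustment over 12330 genes), where 0.211% and 0.0892% of all genes were called. At the study's cut-off of an unadjusted p under 0.01 the counts were again 0 in males and 0 in females, against 3.52% and 0.876% of all genes. At an unadjusted p under 0.05, 0 genes passed in males and 1, Sult2a8, in females. DESeq2 gave the same counts of 0 called in each sex, and 0 in males and 1 in females at an unadjusted p under 0.05. Sult2a1, Sult2a2 and Sult3a1 had 2 or fewer reads in every male library, so the effect in males could be measured for 6 genes. Their log2 fold changes (mKO minus mWT) ran from -0.19 to 0.10 with a median of 0.04, beside a median of 0.00 over all genes tested. In females the 9 values (fKO minus fWT) ran from -1.33 to 0.22 with a median of -0.05, and in both sexes the groups overlapped for all of them.

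Sult2a8, a sulfotransferase of bile acids, was the gene with the lowest p in the females. Its level ranged from 610 to 757 CPM with a median of 670 in fWT mice and from 684 to 875 CPM with a median of 777 in fKO mice. All 6 fKO mice lay above the fWT median, but the ranges overlapped. The log2 fold change was 0.22 ± 0.10 (SE) with an unadjusted p of 0.0483 and an adjusted p of 0.929 (edgeR). In males it ranged from 965 to 1322 CPM with a median of 1192 in mWT and from 886 to 1515 CPM with a median of 1114 in mKO mice. These ranges also overlapped, and the fitted value was -0.02 ± 0.10.

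The 2 hydroxysteroid sulfotransferases Sult2a1 and Sult2a2 had the largest fitted differences between fKO and fWT mice and also the largest errors. Sult2a1 stood at 87.4, 144, 9.83, 87.5, 44.5 and 10.1 CPM in fWT mice 1 to 6 and at 21.5, 3.73, 16.5, 81.9, 10.7 and 19.1 CPM in fKO mice 1 to 6. The fKO range lay almost wholly inside that of the fWT mice, and 1 fKO mouse (mouse 4) was above the fWT median. The log2 fold change was -1.33 ± 0.84 (SE) with an adjusted p of 0.929 (edgeR), and without fKO mouse 4 it was -2.17 ± 0.79 with an adjusted p of 0.997. Sult2a2 stood at 63.3, 74.2, 13.0, 58.2, 31.9 and 15.4 CPM in fWT and 25.8, 5.96, 12.4, 59.2, 10.7 and 28.0 CPM in fKO mice in the same order, with a log2 fold change of -0.86 ± 0.62 and an adjusted p of 0.933. The same mice were high and low for both genes. With the reads of Sult2a1 to Sult2a7 summed, so that their division between the copies has no effect, the log2 fold change was -0.97 ± 0.49 with an adjusted p of 0.928.

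For the other genes the KO and WT mice overlapped and the fitted differences were small beside their errors. Sult1a1, the main phenol sulfotransferase, gave a log2 fold change of 0.07 ± 0.14 (SE) in males and -0.05 ± 0.14 in females. Sult1b1, which acts on thyroid hormones, gave 0.03 ± 0.12 and 0.15 ± 0.12. Sult1c2 gave 0.05 ± 0.21 and -0.10 ± 0.19, and Sult5a1 gave 0.10 ± 0.28 and 0.04 ± 0.27. Sult1d1, which acts on catecholamines, gave -0.19 ± 0.18 in males and 0.12 ± 0.18 in females, and the amine sulfotransferase Sult3a1 gave -0.10 ± 0.15 in females. Sult1e1, the estrogen sulfotransferase, did not pass the filter, with 0 to 32 reads per library and 163 over all 24. Its level ranged from 0 to 0.793 CPM in mWT, 0.0530 to 0.464 in mKO, 0 to 1.63 in fWT and 0.113 to 0.877 in fKO mice, so a change of this gene was not detectable at this depth.

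The effect of the deletion was also compared between the sexes with an interaction term. None of the genes was called at an adjusted p under 0.05 (0 of 9; 0.00811% of all genes) or at an unadjusted p under 0.01 (0 of 9; 1.16% of all genes), 0 passed an unadjusted p under 0.05, and DESeq2 also gave 0 calls and 0 at an unadjusted p under 0.05. For Sult2a1, Sult2a2 and Sult3a1, which were at or near 0 in males, this test could not show a difference, so only the other 6 genes inform these counts. For the 6 genes measured in both sexes the difference (effect in males minus effect in females) ran from -0.32 ± 0.25 for Sult1d1 to 0.15 ± 0.28 for Sult1c2 on the log2 scale. The p-values measure the spread between mice, which were separate animals.

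**Figure D2:**
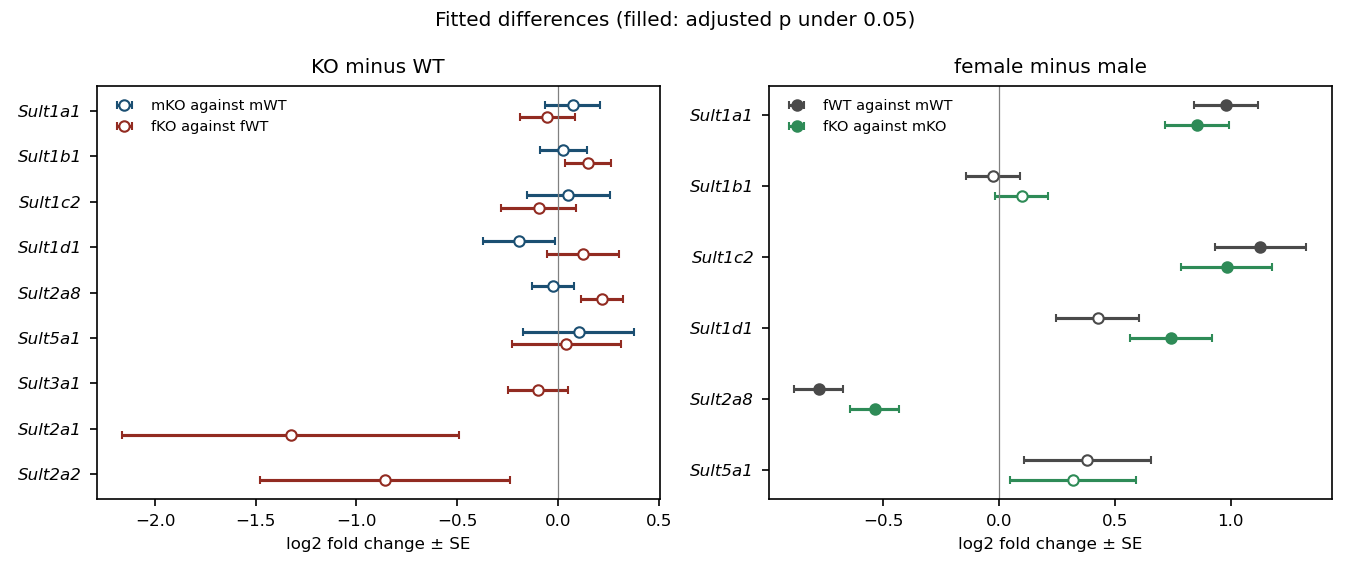
Fitted log2 fold changes with their SE for KO minus WT (left, 6 genes in males and 9 in females) and for female minus male (right, the 6 genes read in both sexes); filled points have an adjusted p under 0.05. On the left no point is filled and Sult2a1 in females is farthest from 0 with the widest error, and on the right Sult1a1 and Sult1c2 are filled above 0 and Sult2a8 is filled below 0 in WT and KO mice, with Sult1d1 filled in KO mice.

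The second comparison was between females and males within each genotype. In WT mice 5 of the 9 genes tested were higher in females, among 8.81% of all genes called higher, and 1 was lower, among 8.51% called lower (adjusted p under 0.05, edgeR). In KO mice 6 were higher, among 7.13% of all genes, and 1 was lower, among 7.26%. Sult1a1, Sult1c2, Sult2a1, Sult2a2 and Sult3a1 were higher in females of both genotypes with no overlap between the sexes, and Sult2a8 was higher in males of both with no overlap. Sult2a1, Sult2a2 and Sult3a1 passed the filter on low values through the females alone, so they had to differ, and the counts lend no support beyond the other 6 genes. Of these 6, 2 were higher and 1 lower in WT females, and 3 were higher and 1 lower in KO females. Both comparisons share no mice with each other.

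**Figure D3:**
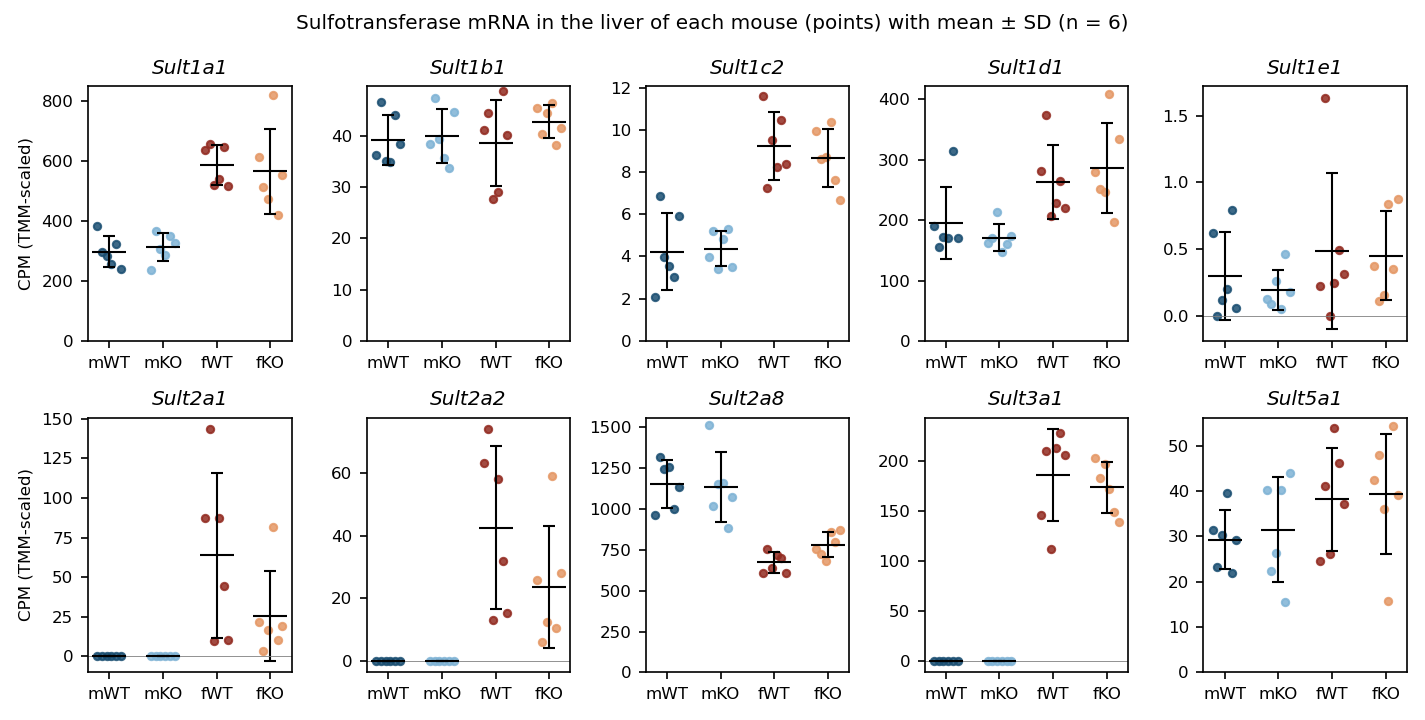
Level of each of the 10 genes in CPM (linear axes that include 0) in every mouse, with mean and SD of the 6 mice per group in black. Sult2a1, Sult2a2 and Sult3a1 lie at or near 0 in all 12 males, Sult1a1 and Sult1c2 are higher and Sult2a8 lower in both female groups than in the males of the same genotype, and Sult1b1 and Sult5a1 overlap in all 4 groups.

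Sult3a1 was read in females at a level of the more abundant Sult genes and in males hardly at all. It ranged from 112 to 229 CPM with a median of 209 in fWT and from 139 to 203 CPM with a median of 177 in fKO mice. In males 6 reads were counted over the 6 mWT and 3 over the 6 mKO libraries. The ratio of summed counts, scaled for depth, was 3128 in WT mice, with an exact interval of 1437 to 8523 at a confidence level of 95%, and 6694 in KO mice, with an interval of 2290 to 32464. These intervals cover counting error only. The adjusted p was 8.28e-19 in WT and 6.07e-19 in KO mice (edgeR). Since Sult3a1 passed the filter on low values through the females alone, these p-values lend no support of their own. Its paralogue Sult3a2, on the other strand of chromosome 10, was likewise read in females alone, from 2.43 to 17.0 CPM in fWT and from 5.43 to 8.10 CPM in fKO mice, and had 0 reads in all 12 male libraries. The number of Sult3a1 reads for each Sult3a2 read ranged from 13.5 to 46.2 over the 12 females.

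Sult2a1 and Sult2a2 had 0 reads in each of the 12 males. In the same libraries 13369 to 36433 reads were assigned to Sult2a8, which shares no 100-base window with these genes. Against a floor of 3 counts in the shallowest library of the male group, the mean of Sult2a1 was at least 334-fold higher in fWT than in mWT mice (adjusted p = 0.00224, edgeR) and at least 129-fold higher in fKO than in mKO mice (adjusted p = 0.00622). The second bound rests in part on fKO mouse 4, without which it was 71.96-fold. The bounds for Sult2a2 were 223-fold (adjusted p = 0.000423) and 119-fold (adjusted p = 0.000877). Sult2a1 and Sult2a2 passed the filter on low values through the females alone, so these p-values lend no support of their own. Sult2a3, Sult2a4 and Sult2a5 were at 0 in all males as well and Sult2a6 had 1 read in 1 mKO library, whereas Sult2a7 was read in both sexes with 1.54 ± 0.442 CPM in mWT, 1.85 ± 0.842 in mKO, 6.05 ± 1.70 in fWT and 7.21 ± 4.29 in fKO mice (SD, n = 6). With Sult2a1 to Sult2a7 summed, the log2 fold change between females and males was 6.62 ± 0.67 in WT and 5.34 ± 0.63 in KO mice.

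Within females Sult2a1, Sult2a2, Sult2a4, Sult2a5 and Sult2a6 rose and fell together from mouse to mouse, whereas Sult2a7 did not follow them. This course was not particular to the Sult2a copies. Over the 12 females, deviations from the group mean (log2 CPM) of Sult1d1 (r = 0.75 to 0.83) and Sult1a1 (0.67 to 0.78) also followed these 5 genes. Sult2a8 followed less closely (0.59 to 0.62), Sult3a1 little (0.19 to 0.27), and Sult5a1 went the other way (-0.37 to -0.29). Sult2a1 varied 14.6-fold between the lowest and the highest fWT mouse and 21.95-fold between fKO mice, and Sult2a2 varied 5.72-fold and 9.93-fold. Single mice set these ranges: with 1 mouse left out, that of Sult2a1 was 8.91-fold without fWT mouse 2, 5.77-fold without fKO mouse 4 and 7.66-fold without fKO mouse 2, and that of Sult2a2 was 4.70-fold and 5.55-fold without the same fKO mice. The coefficient of variation of Sult2a1 was 81.9% in fWT and 111% in fKO mice, and 0.357% and 0.227% of all genes tested had a higher one. Without fKO mouse 4 the coefficient in fKO mice was 49.98%. fWT mouse 2 had the highest level of Sult2a1, Sult2a2, Sult2a4, Sult2a5 and Sult2a6 among the 12 females, and fKO mouse 2 the lowest of all 5. fWT mice 1, 2 and 4 and fKO mouse 4 held the 4 highest levels of each of these 5 genes. Sult2a8 and Sult3a1 were far more even, with a highest-to-lowest ratio of 1.24 and 2.04 in fWT and of 1.28 and 1.46 in fKO mice. fKO mouse 2 had the second-highest level of Sult2a7. Sult2a1, Sult2a2, Sult2a4 and Sult2a5 each share exact windows with at least 1 of the others, and Sult2a6, with the same 4 highest mice, shared none. The part of shared reads in this course was not tested. Sult2a1 and Sult2a2 together held between 67.3 and 75.6% of the reads of Sult2a1 to Sult2a6 in every female, with 0.627 to 1.94 reads of Sult2a1 for each read of Sult2a2.

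**Figure D4:**
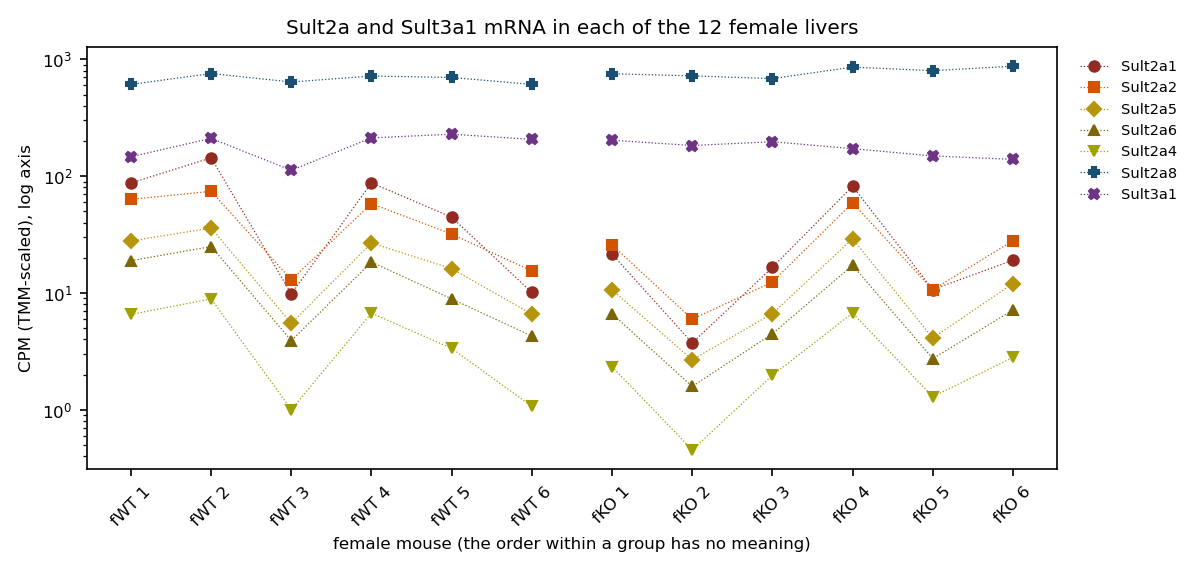
Levels of Sult2a1, Sult2a2, Sult2a4, Sult2a5, Sult2a6, Sult2a8 and Sult3a1 in each of the 12 females, in CPM on a log axis; dotted lines join the mice of a group for the eye only, since their order has no meaning. The first 5 genes share their peaks in fWT mice 1, 2 and 4 and fKO mouse 4, while Sult2a8 stays between 610 and 875 CPM.

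Among the genes read in both sexes, Sult2a8 was higher in males. The 12 male values (886 to 1515 CPM, with medians of 1192 in mWT and 1114 in mKO) all exceeded the female values (610 to 875 CPM). The mean was 1.72-fold higher in mWT than in fWT mice, a log2 fold change (female minus male) of -0.78 ± 0.11 (SE, adjusted p = 5.42e-06, edgeR), and 1.45-fold higher in mKO than in fKO mice, -0.54 ± 0.11 (adjusted p = 0.000675). The value in WT mice minus that in KO mice, -0.24 ± 0.15, was not called (adjusted p = 0.880, edgeR).

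Sult1a1 and Sult1c2 were higher in females. Sult1a1 ranged from 240 to 383 CPM with a median of 288 in mWT, 236 to 367 with 317 in mKO, 515 to 657 with 588 in fWT and 420 to 819 with 532 in fKO mice. No female overlapped the males of her genotype, and the log2 fold change was 0.98 ± 0.14 (SE) in WT (adjusted p = 1.01e-05, edgeR) and 0.85 ± 0.14 in KO mice (adjusted p = 6.83e-05). Sult1c2 was low, with 2.06 to 6.85 CPM and a median of 3.76 in mWT, 3.43 to 5.30 with 4.41 in mKO, 7.25 to 11.6 with 8.95 in fWT and 6.66 to 10.4 with 8.66 in fKO mice. The sexes did not overlap within a genotype, and the log2 fold change was 1.13 ± 0.20 in WT (adjusted p = 0.000199) and 0.98 ± 0.20 in KO mice (adjusted p = 0.000881).

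Sult1d1 passed the test between the sexes in KO mice and not in WT mice. It ranged from 156 to 315 CPM with a median of 171 in mWT, 146 to 214 with 166 in mKO, 207 to 374 with 247 in fWT and 197 to 408 with 266 in fKO mice, and the sexes overlapped in both genotypes. The log2 fold change (female minus male) was 0.43 ± 0.18 (SE) in WT, with an adjusted p of 0.105, and 0.74 ± 0.18 in KO mice, with an adjusted p of 0.00583 (edgeR). The difference between these values was not called (adjusted p = 0.898), so a sex difference particular to KO mice is not shown. 1 mouse decided the call in WT mice: without mWT mouse 5, the highest male, the log2 fold change was 0.61 ± 0.16 with an adjusted p of 0.00853.

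For Sult1b1 and Sult5a1 no sex difference was called. Sult1b1, which lies in 1 cluster with Sult1d1 and Sult1e1 on chromosome 5, ranged from 35.0 to 46.6 CPM in mWT, 33.8 to 47.5 in mKO, 27.8 to 48.7 in fWT and 38.2 to 46.4 in fKO mice, with medians between 37.3 and 43.0. The log2 fold change was -0.02 ± 0.12 (SE) in WT and 0.10 ± 0.12 in KO mice. Sult5a1 ranged from 21.8 to 39.7 CPM in mWT, 15.6 to 44.0 in mKO, 24.7 to 54.0 in fWT and 15.7 to 54.3 in fKO mice, with log2 fold changes of 0.38 ± 0.27 and 0.32 ± 0.27. Both genes overlapped between all 4 groups.

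Other markers differed between the sexes in the same libraries. All 10 female-biased and all 10 male-biased liver markers were called in the direction of their name in WT and in KO mice, and these lists were assembled with such a bias known. Of the 6 markers of Kupffer cells and macrophages, 4 were higher in fWT than in mWT mice and 0 in KO mice, with sums of 66.9 to 133 CPM in mWT, 65.2 to 181 in mKO, 121 to 225 in fWT and 101 to 183 in fKO mice. The call of 1 of the 4, Clec4f, was lost without mWT mouse 6 (adjusted p = 0.0559, edgeR) or fWT mouse 1 (adjusted p = 0.0656). Of 6 stellate cell markers, 1 was higher in fWT and 2 were higher in fKO mice than in males, and of 6 endothelial markers 2 and 1 were. Of 8 hepatocyte markers, 2 were higher in fWT, and 1 was higher and 1 lower in fKO mice. Of the cholangiocyte and intestine markers, 1 each was higher in fWT and 0 in fKO mice. Over all genes, 8.81% were called higher and 8.51% lower in WT females, and 7.13% and 7.26% in KO females. The same shares apply to the lists that follow. Of the 4 erythroid markers, Alas2 was lower in females of both genotypes, with 113 to 152 CPM in mWT and 8.48 to 16.4 in fWT mice. The 3 globin genes were called lower in KO females and not in WT females, and summed to 32.9 to 74.5 CPM in mWT, 50.02 to 93.8 in mKO, 29.3 to 49.3 in fWT and 29.2 to 40.9 in fKO mice. A change of the sex difference with genotype was called for none of these Kupffer cell, stellate cell, endothelial or erythroid markers. The part of these cells in the sex differences of the Sult genes was not tested. In whole liver, fewer cells of a type and less mRNA per cell cannot be told apart.

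The genes that supply and use sulfate were followed beside the sulfotransferases. Of 6 genes of PAPS supply, 0 were called for the deletion in either sex, and 1 was higher and 1 lower in females in each genotype. Papss2, an enzyme that makes PAPS, ranged from 234 to 421 CPM in mWT, 183 to 289 in mKO, 272 to 503 in fWT and 410 to 525 in fKO mice. The sexes overlapped in WT and not in KO mice, and the log2 fold change (female minus male) was 0.43 ± 0.14 (SE, adjusted p = 0.0421, edgeR) in WT and 0.99 ± 0.15 (adjusted p = 2.21e-05) in KO mice. The difference between these 2 values was not called (adjusted p = 0.816, edgeR). The call in WT mice was lost when any 1 of 9 mice (mWT 1, 2, 4, 5 or 6, fWT 1, 2, 4 or 5) was left out, with adjusted p up to 0.119, and also with no filter on low values (0.0610) or only the groups compared in the fit (0.105). Bpnt1, which degrades the product that PAPS leaves behind, was lower in females, with log2 fold changes of -0.21 ± 0.06 in WT and -0.28 ± 0.06 in KO mice. The 2 sulfate transporters tested, Slc26a1 and Slc26a2, were called in none of the comparisons.

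Of 6 genes that make sulfate from cysteine, Sqor, which oxidises sulfide, was higher in females by 0.28 ± 0.08 on the log2 scale in both genotypes (adjusted p = 0.0118 and 0.0156, edgeR). Cdo1, which oxidises cysteine, was called higher in fWT mice (0.35 ± 0.12, adjusted p = 0.0456) and Ethe1, which acts on persulfides, lower in fKO mice (-0.80 ± 0.25, adjusted p = 0.0312). Both calls were lost without single mice, that of Cdo1 without any 1 of 11 (mWT 2 to 5, mKO 3 to 6, fWT 1, 2 or 5; adjusted p up to 0.121) and that of Ethe1 without any 1 of 7 (mKO 2, 4 or 5, fKO 1, 4, 5 or 6; adjusted p up to 0.0777). They were lost as well with no filter on low values (0.0518 for Cdo1, 0.0515 for Ethe1) and with only the groups compared in the fit (0.0752 and 0.0767). None of the 6 was called for the deletion.

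Among 12 genes tested of a list of sulfatases, which remove sulfate groups, and of their modifying factors Sumf1 and Sumf2, 2 were higher and 3 lower in females in WT and in KO mice, and 0 were called for the deletion. Arsa, a lysosomal sulfatase that acts on sulfated lipids, ranged from 26.2 to 42.0 CPM in mWT and from 9.14 to 19.4 in fWT mice without overlap, a log2 fold change of -1.29 ± 0.17 (adjusted p = 8.22e-06, edgeR). In KO mice it ranged from 28.7 to 41.6 CPM in males and 10.5 to 16.6 in females, -1.57 ± 0.17 (adjusted p = 5.44e-07). Arsb and Arsg were lower as well, with log2 fold changes of -0.32 ± 0.06 and -0.70 ± 0.17 in WT mice. Sulf2, which trims heparan sulfate, was higher in females by 0.98 ± 0.11 in WT and 0.44 ± 0.11 in KO mice, and Ids, which acts on heparan and dermatan sulfate, was also called in both, by 0.40 ± 0.08 in KO mice. For Sulf2 the difference between the genotypes was not called (adjusted p = 0.816, edgeR).

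**Figure D5:**
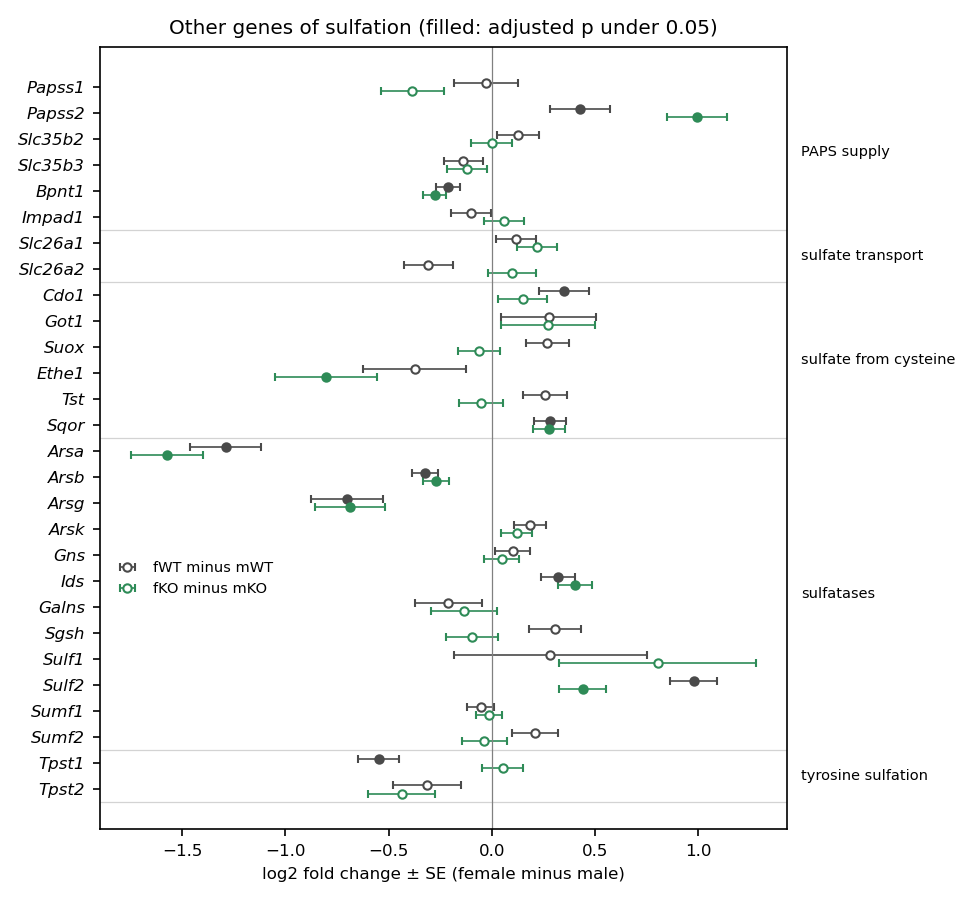
Log2 fold changes (female minus male) with SE of the genes of PAPS supply, sulfate transport, sulfate from cysteine, sulfatases and tyrosine sulfation in WT and KO mice; filled points have an adjusted p under 0.05. Arsa, Arsb, Arsg and Bpnt1 are filled below 0 and Papss2, Sqor, Ids and Sulf2 above 0 in both genotypes.

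Tpst1, a tyrosylprotein sulfotransferase of the Golgi apparatus, was the 1 gene of these lists that was called for the deletion. It ranged from 21.7 to 32.1 CPM in mWT and from 16.4 to 21.8 in mKO mice, with a slight overlap, and from 15.5 to 19.8 in fWT and 16.9 to 21.2 in fKO mice. Tpst1 fell in mKO mice (-0.47 ± 0.10 on the log2 scale, adjusted p = 0.0368, edgeR), and the value in females was 0.13 ± 0.10 (adjusted p = 0.933). The effects were not shown to differ between the sexes (adjusted p = 0.620). The call was lost in 11 of 35 other analyses, among them the removal of the Mup genes (adjusted p = 0.134) and leaving out any 1 of 9 mice (mWT 4, 5 or 6, mKO 2, 3, 5 or 6, fWT 1, fKO 4), with adjusted p up to 0.161. Between the sexes, Tpst1 was lower in fWT than in mWT mice (-0.55 ± 0.10, adjusted p = 0.000249, edgeR), a call kept in all 35 other analyses. In KO mice the sexes were not called different (0.05 ± 0.10, adjusted p = 0.776). Tpst2, the paralogue of Tpst1, was not called in any comparison.

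Of 18 regulators of Sult genes tested, 0 were called for the deletion and 3 were higher in females in each genotype. Cux2, a repressor found mainly in female liver, ranged from 0.0527 to 0.454 CPM over the males and from 9.40 to 42.7 CPM over the females, with log2 fold changes of 6.30 ± 0.50 (SE) in WT and 7.50 ± 0.55 in KO mice. Nr1i3, the constitutive androstane receptor, was higher by 0.84 ± 0.23 and 0.93 ± 0.23. Esr1, the estrogen receptor, was called in KO mice (2.05 ± 0.25), but the difference between the genotypes was not (adjusted p = 0.745, edgeR). Nr1i2, Nr1h4, Ppara, Hnf4a, Stat5b and Onecut1 were not called between the sexes. Whether these regulators have a part in the levels of the Sult genes was not tested.

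Genes outside the family were ranked by how closely their deviation from the group mean followed that of each Sult gene over the 24 livers, on the log2 CPM scale. The values are descriptions, since they are the highest of 12330 genes and the points share their libraries, and for Sult2a1, Sult2a2 and Sult3a1 the males, at or near 0, add almost no spread of their own. The order depended on the mice used. Over the 12 females alone, only Akr1d1 (for Sult1a1) and Cfap36 (for Sult1b1) of the genes named here were among the 3 closest. Smim19 (r = 0.86), Akr1d1 (0.85), which takes part in bile acid synthesis, and Extl1 (0.84) were closest to Sult1a1. Aass and Coa6 were among the closest to Sult1d1 (0.81 and 0.75), Cfap36, Hhipl2 and Smim8 to Sult1b1 (0.82 to 0.73), and Rassf3, Hat1 and Ddah1 to Sult1c2 (0.81 to 0.77). Sult2a1 was followed most closely by Cyp3a41b, Cyp3a41a and Sptssa (0.78 to 0.75), the first 2 of which are near-identical, female-biased cytochrome P450 genes. Serpina6, Hnmt and Mpv17l were closest to Sult2a2 (0.77 to 0.74), Aadat and Ccnc among the closest to Sult2a8 (both 0.70), Lhx2, Pgpep1 and Gnptab to Sult3a1 (0.77 to 0.66), and Tuft1, Ces3b and Selenbp2 to Sult5a1 (0.79 to 0.76).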

How the data were processed

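Hepatic mRNA of 24 mice was sequenced as stranded libraries with 100-base single-end reads. Per the labels and the study's methods, the authors used bcl2fastq 2.19, fastp 0.20, STAR 2.7a and featureCounts against GRCm38.p6, and deposited raw counts per Ensembl gene, 1 table per mouse. The annotation release, the strand setting and the treatment of reads with several matches are not given in the sources used here. Symbols and positions came from GENCODE M21 (GRCm38), which matched 25712 of the 25746 genes, and promoters from the RefSeq table (GRCm38.p6).

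Counts were analysed with edgeR 4.0.16 in R 4.3.3. The 12330 genes that reached 0.66 CPM in 6 or more libraries entered the models, TMM scaled the library sizes, and robust quasi-likelihood models with 1 mean per group were fitted to all 24 libraries. The 5 contrasts were tested with Benjamini-Hochberg adjustment over all genes. DESeq2 1.42.0 served as an alternative. Fitted log2 fold changes of genes at 0 in a group depend on the prior count, so bounds against 3 counts per library are given for them. The model was tested on simulated data.

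No pair of libraries within a group agreed within counting noise (lowest chi-square per gene 7.68). Same-numbered mice of different groups did not deviate together, so the numbers were not used to pair them. The genes and lists were chosen with earlier results of these data known. Named beside the 10 Sult genes were the other Sult genes, at most 4 called genes with the largest change per list and comparison, and the 3 genes most like each Sult gene with a mean of at least 50 counts, a few of which are not reported here. Reads had no molecular identifiers, so that intervals and floors describe counting error alone. Alternatives were other filters, scalings and tests, the Mup genes removed, copies summed, a block for the mouse number and each mouse left out in turn. Bounds and ranges of Sult2a1 and Sult2a2 without single females were added after the data had been seen.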

Additional observations from a re-analysis of the deposited data

Results flagged for a closer look

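In 30 groups of 6 mice, the highest and the lowest mouse were compared with the rest by Dixon's criterion, which chance exceeds in about 1 of 20 groups. The groups came from the 9 of the 10 genes that passed the filter on low values, where reads were above the floor. Sult1e1 and the Sult genes outside the 10 were not examined in this way. The criterion was exceeded by 2 mice. mWT mouse 5 had 314.9 CPM of Sult1d1, where the other mWT mice had at most 190.3 CPM. fKO mouse 4 had 81.9 CPM of Sult2a1, where the other fKO mice had at most 21.5 CPM. The same fKO mouse was the highest fKO mouse for Sult2a2, Sult2a4, Sult2a5 and Sult2a6 and the highest of all 12 females for Sult1a1 and Sult1d1. No Sult gene had an effect of the deletion that was called different between the sexes.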

How the results depend on the processing

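The counts of Sult genes called (0 in males, 0 in females and 0 for the difference between the sexes, 6 for the sex difference in WT and 7 in KO mice) were the same under every alternative, except that leaving out single mice gave 6 to 7 in WT mice, owing to Sult1d1. With copies summed, Sult2a1 and Sult2a2 shared 1 test, which was counted for both genes, so the equal counts under that alternative are no separate check of them. The count over all genes for the deletion in males moved from 26 to 139 with the DESeq2 test, to 2 with the Mup genes removed, to 48 with only the groups compared in the fit, and to between 19 and 59 with single mice left out, with 59 without mWT mouse 1 and 40 without mWT mouse 2. In females it moved from 11 to 18 with DESeq2 and to 0 without the Mup genes, and for the difference between the sexes from 1 to 11 with DESeq2. No called direction turned under any alternative run. With the replicate number as a block (replicate block), 0, 0, 0, 6 and 7 Sult genes and 24, 11, 1, 2062 and 1664 genes in all were called in the same order of comparisons, and the call of Papss2 in WT mice was lost (adjusted p = 0.0580). Of 36 pairs of same-numbered mice, 10 correlated above 0.1 (range -0.335 to 0.253), and 1 of 24 mice was closest to its own number. Over single genes, 2700 values kept their side of the threshold, 48 lost a call (Cdo1, Clec4f, Ethe1, Nr1i3, Papss2, Tpst1) and 1 gained it (Sult1d1). Values of Sult genes that were not called changed sign in some alternatives for Sult1b1, Sult1a1, Sult1c2, Sult2a8 and Sult5a1, all within 0.11 of 0. Depth limits Sult1e1, and shared sequence limits Sult2a1 and Sult2a2.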
